A study of Mus musculus with 30 samples.

Results

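The liver X receptors (LXRs) and the lipid genes under their control were followed in primary mouse microglia, the resident macrophages of the brain. The 10 genes were taken by name from a fixed list and found by symbol among 38031 annotated genes, with the counts of each gene's transcripts summed. They are the receptors Nr1h3 (LXRα) and Nr1h2 (LXRβ), and 8 target genes: the sterol transporters Abca1 and Abcg1, the lipid carriers Pltp and Apoc1, the ubiquitin ligase Mylip, and the lipid-modifying genes Lpcat3, Srebf1 and Scd2. All 10 passed the filter on low counts and were tested among 14346 genes. The microglia came from the brains of C57BL/6 mice at postnatal day 21. Some were wild type, and the others were Lrrk2-/- (KO), lacking the kinase and GTPase Lrrk2 that is linked to Parkinson's disease. Cells of each genotype were left as controls, or were given lipopolysaccharide (LPS, a bacterial ligand of Toll-like receptor 4) or fibrils of α-synuclein, whose aggregates mark that disease. The wild type gave 5 control, 6 LPS and 4 fibril libraries, and KO gave 6 control, 4 LPS and 5 fibril libraries. The sources used here do not give doses, times, the sex of the animals or the number of animals behind a library.

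LXRs are nuclear receptors that bind DNA as partners of the retinoid X receptors (RXRs) and are activated by oxysterols and by desmosterol, which build up when a cell holds more cholesterol than it needs. Their targets move cholesterol out of the cell, lower its uptake, and change the fatty acids of membrane phospholipids. In macrophages and microglia this programme is engaged when lipid-rich debris is taken up, and ligand-bound LXRs also restrain inflammatory genes. Nr1h2 is made in most cell types, whereas Nr1h3 is concentrated in liver, fat and macrophages.

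LXR and RXR bind as a pair to direct repeats of a hexamer with a 4-base spacer, called DR4 elements. Promoter windows of 300 bases, reaching 250 bases upstream of a start site, were read from the RefSeq table on GRCm38.p6, where 7 of the 10 genes had 10 windows. A repeat of the half-sites GGTTA and CGGTCA with a spacer of 4 bases, with letters chosen from the known elements of Abca1 and Srebf1, was searched on both strands. It stood in 4 of 32851 windows (0.0122%), those of Abca1, Srebf1, Fasn and Prrg4. Since the letters came from the first 2 of these genes, their matches were fixed by the choice of motif and say nothing of the 10 genes as a group. The repeat of AGGTCA with AGGTCA over the same spacer stood in 0 of those 10 windows and in 5 of all windows (0.0152%). The upstream bases of both matching promoters are shown because they carry the same element at different distances from the start. They are written 5′ to 3′ on the gene's strand, with the element in capitals. The motif reads along the opposite strand, so the capitals are its reverse complement.
Abca1, GRCm38.p6, chr4:53159896-53160145, minus strand: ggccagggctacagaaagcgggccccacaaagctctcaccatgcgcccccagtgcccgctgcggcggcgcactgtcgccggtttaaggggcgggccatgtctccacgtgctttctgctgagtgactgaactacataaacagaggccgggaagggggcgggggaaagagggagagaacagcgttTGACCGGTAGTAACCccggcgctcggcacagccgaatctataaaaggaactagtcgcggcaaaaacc
Srebf1, GRCm38.p6, chr11:60210472-60210721, minus strand: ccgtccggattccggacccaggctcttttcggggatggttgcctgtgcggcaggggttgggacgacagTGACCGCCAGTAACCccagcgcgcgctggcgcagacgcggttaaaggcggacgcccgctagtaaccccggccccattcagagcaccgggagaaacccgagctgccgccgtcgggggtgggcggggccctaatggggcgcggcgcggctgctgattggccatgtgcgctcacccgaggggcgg
In Abca1 the element spans positions -67 to -53 from the start, and in Srebf1 positions -182 to -168. The Srebf1 window belongs to the downstream start, that of transcript Srebf1-207, which held 15.4% of Srebf1 counts over all libraries. Srebf1-201, which starts further upstream, held 69.6%. A match is a description of letters, and binding was not measured.

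Gene totals ran from 8936310 to 35677005 counts per library (median 20432234). Lrrk2, the targeted gene, separated the genotypes in each treatment without overlap, with 13.2 ± 2.56 CPM (counts scaled to library size with TMM factors, mean ± SD, n = 5) in wild-type controls and 2.78 ± 0.879 CPM (n = 6) in KO controls. Of 12 microglia markers 11 passed the filter, and their summed level lay between 4191 and 6626 CPM in all 30 libraries. Markers of other brain cells differed between libraries and with the groups. The score used for them is the mean log2 CPM of 35 tested astrocyte, oligodendrocyte and fibroblast markers of 37 listed. The 4 wild-type fibril libraries held the narrow range from -1.14 to -0.79, against -0.76 to 2.69 in wild-type controls, -1.36 to 2.88 in wild-type LPS, 0.64 to 3.42 in KO controls, 0.12 to 2.59 in KO LPS and 0.74 to 2.59 in KO fibril libraries. In the wild-type fibril libraries the summed level of astrocyte markers was 16.5 to 23.8 CPM. Oligodendrocyte markers summed to 96.0 to 107.7 CPM there, against 104 to 211 CPM in wild-type controls and 90.0 to 181 CPM in wild-type LPS libraries. In the wild-type fibril group 2 of 12 astrocyte markers (Ntsr2 and Gjb6) and 2 of 13 oligodendrocyte markers (Mobp and Mog) were at 0. Replicates of that group were also the closest to each other. Beyond a fit with the score as a covariate, the part of these markers in the results was not tested. The score of a library is given beside values it moved with.

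**Figure D1:**
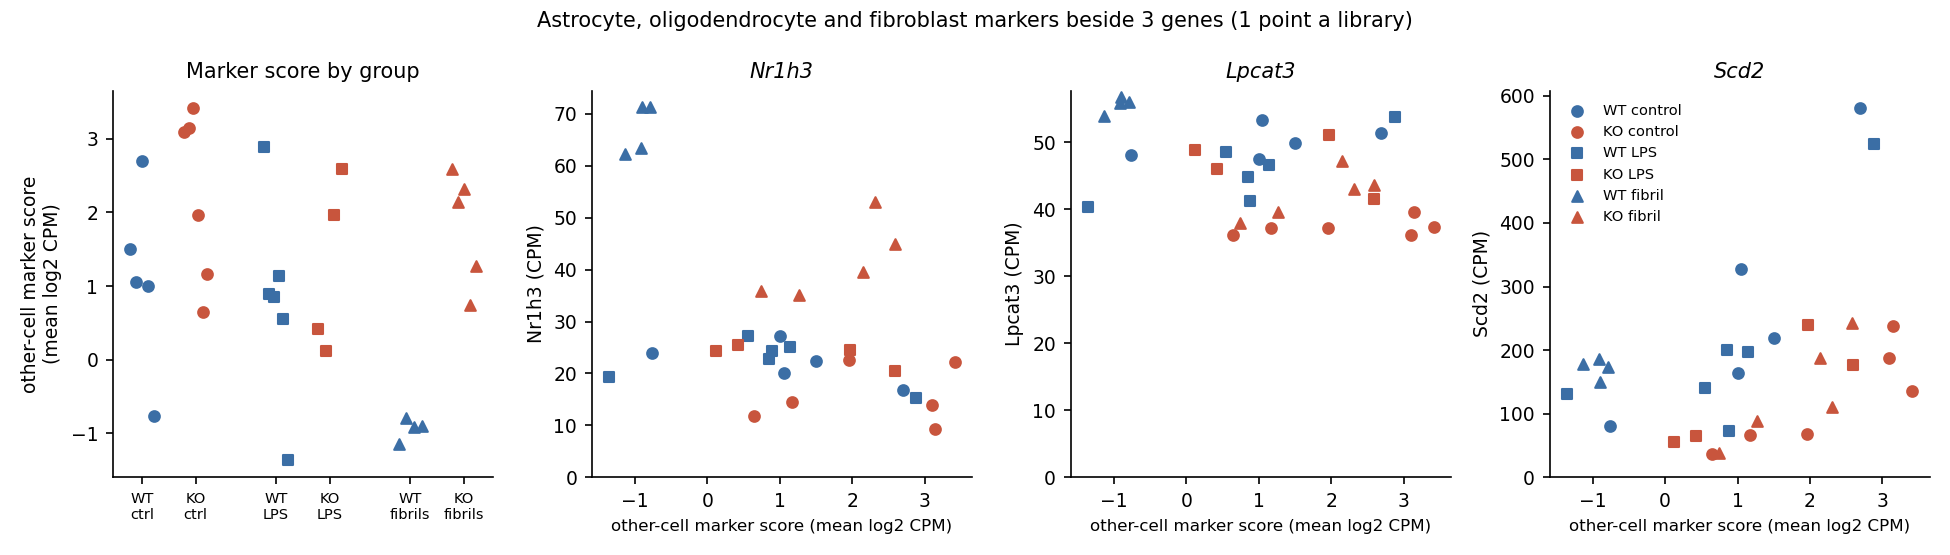
Left, mean log2 CPM of the other-cell markers (y axis) in each library of the 6 groups; other panels, that score (x axis) against the level of Nr1h3, Lpcat3 and Scd2 in CPM (y axis, from 0), with 1 point a library, blue for wild type, red for KO, circles for control, squares for LPS and triangles for fibrils. Nr1h3 is higher in the wild-type fibril libraries, at scores of -1.14 to -0.79, than in the single wild-type control library 6 at -0.76. Scd2 is highest in wild-type libraries with scores of 2.69 and 2.88. Beyond a fit with the score as a covariate, the part of the markers in these levels was not tested.

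Nr1h3 rose 3.03-fold with fibrils in wild type and 2.66-fold in KO. By the edgeR test none of the 8 target genes was called higher with fibrils in either genotype. This depended on the model. Counting Nr1h3, DESeq2 called 2 of the 10 higher with fibrils in KO, and 3870 of all 14346 genes in either direction. With the marker score as a covariate, 3 of the 10 were higher and 2 lower in wild type, and 2 higher and 2 lower in KO. That fit called 2437 of all genes in wild type and 3763 in KO. Abca1 was highest with LPS and lowest with fibrils in KO. Apoc1 was higher, and Lpcat3, Srebf1 and Nr1h3 were lower, in KO averaged over the treatments. By group means of TPM (a level per transcript length, which allows genes to be compared), Pltp and Abca1 were the 2 most abundant of the 10 in all 6 groups. In wild-type controls Pltp stood at 313 ± 60.4 TPM and Abca1 at 230 ± 20.0 TPM, and their libraries overlapped. Abca1 stood clear of Abcg1 (89.9 ± 16.3 TPM), and from Abcg1 down through Scd2, Mylip, Srebf1, Nr1h2 and Lpcat3 (39.6 ± 8.58 TPM) each gene overlapped the next. Lpcat3 stood clear of Nr1h3 (19.2 ± 2.11 TPM), which overlapped Apoc1 (15.1 ± 6.59 TPM). Apoc1 was 9th or 10th in the 3 wild-type groups and 3rd in the 3 KO groups, at 75.1 ± 53.2, 86.6 ± 43.9 and 55.9 ± 34.4 TPM with control, LPS and fibrils.

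The test across all genes (edgeR quasi-likelihood, Benjamini-Hochberg adjusted p under 0.05) called between 0 and 4 of the 10 in these comparisons. In KO against wild-type controls 1 of 10 was called, where 0.314% of all tested genes were, and the median log2 difference of the 10 was -0.36 against 0.01 for all genes. There 9 of the 10 differences were negative, and 6 had an unadjusted p under 0.05, as had 1040 of all genes. With LPS 0 of 10 differed between genotypes by this test (1.69% of all genes), with a median of -0.03. There 1 of the 10, Apoc1, had an unadjusted p under 0.05, as had 2471 of all genes. DESeq2 called 1 of the 10 and 704 of all genes. With fibrils 2 of 10 were lower in KO (8.85% of all genes were called) and the median was -0.38 against 0.01. Here 9 differences were negative, and 6 had an unadjusted p under 0.05, as had 3533 of all genes. For the mean genotype difference over the 3 treatments, 4 of 10 were called against 11.1% of all genes. Of the 10 differences 9 were negative and 8 had an unadjusted p under 0.05, as had 3919 of all genes. LPS against control called 0 of 10 in wild type (15.1% of all genes) and 3 of 10 in KO (13.7%), and all 10 differences in KO were positive with a median of 0.23. In wild type 1 of the 10, Abca1, had an unadjusted p under 0.05 in that comparison, as had 3437 of all genes. Fibrils against control called 1 of 10 in each genotype, where 29.3% of all genes were called in wild type and 23.8% in KO. Fibrils against LPS called 3 of 10 in wild type (37.1%) and 2 of 10 in KO (26.6%). Between genotypes, 0.725, 8.29 and 15.3% of all tested genes did not overlap in controls, with LPS and with fibrils. Against control these shares were 11.5% in wild type and 10.2% in KO with LPS, and 29.8% and 8.09% with fibrils. Between fibrils and LPS they were 35.4% in wild type and 20.6% in KO. Comparisons that use the same control or LPS libraries are not independent of each other.

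**Figure D2:**
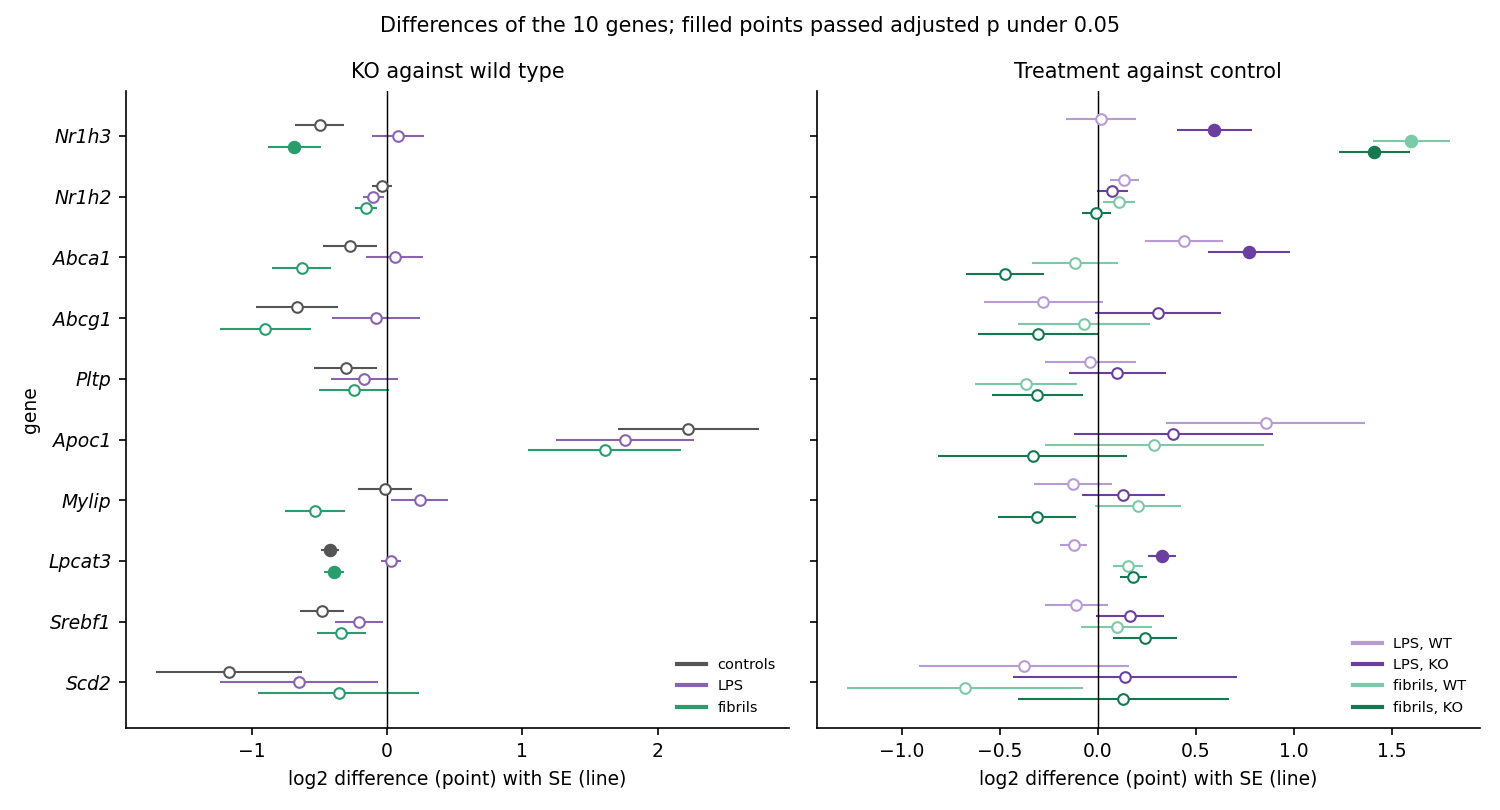
Log2 differences (x axis) of the 10 genes (y axis) in 7 comparisons, KO against wild type on the left and treatment against control on the right, with lines of 1 SE and filled points for genes called at an adjusted p under 0.05. Nr1h3 is called in both fibril comparisons on the right, and Lpcat3 is called lower in KO in controls and with fibrils on the left.

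Nr1h3 (ENSMUSG00000002108, GRCm38 chr2:91184061-91202834, minus strand), the LXR concentrated in macrophages, was the gene that moved most with fibrils. Wild-type controls held 22.4, 20.2, 16.8, 27.1 and 24.0 CPM. Wild-type fibril libraries held 62.2, 71.3, 63.5 and 71.4 CPM, all far above the controls. The difference was 1.60 ± 0.20 on the log2 scale (± SE), 3.03-fold, with an adjusted p of 2.05e-06. In KO the controls ran from 9.38 to 22.6 CPM with a median of 14.2, and the fibril libraries held 45.0, 39.6, 52.9, 35.9 and 35.1 CPM. These groups did not overlap either, and the rise was 1.41 ± 0.18 (2.66-fold, adjusted p = 2.22e-06). As in every bulk value here, more RNA per cell and more cells that carry the transcript cannot be told apart. The fibril call held under every alternative tried in both genotypes. Wild-type control library 6, with a marker score of -0.76 next to that of the fibril libraries, held 24.0 CPM of Nr1h3. Wild-type LPS library 6, with a score of -1.36, held 19.4 CPM. These are single libraries. The alternatives included the marker score as a covariate, and beyond that fit the part of the markers in the rise was not tested.

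The receptor was less abundant in KO when fibrils were present. The highest KO fibril library (52.9 CPM) lay below the lowest wild-type one (62.2 CPM), and the difference was -0.69 ± 0.19 (adjusted p = 0.0287). KO fibril library 4, with the lowest marker score of its group (0.74), held 35.9 CPM. The 2 KO fibril libraries with the lowest scores, 4 and 5, had the lowest Nr1h3 of the group. That call rested on small margins. It was lost without KO fibril library 5 (-0.63, adjusted p = 0.0561) and without wild-type fibril library 1, 2, 3 or 4 (-0.72, -0.66, -0.71 and -0.66, adjusted p = 0.063, 0.0799, 0.0583 and 0.0752). With the marker score as a covariate the difference was -0.63 (adjusted p = 0.43), and it also missed the threshold with scaling by library size alone (-0.53) and without the filter (-0.65). The rise with fibrils itself did not differ detectably between genotypes (KO minus wild type -0.19 ± 0.27, 95% interval -0.73 to 0.36). In controls the KO difference was -0.50 ± 0.18 (adjusted p = 0.448) with overlapping libraries. Averaged over the 3 treatments it was -0.37 ± 0.11 (adjusted p = 0.0310), a call lost without KO LPS library 3 or 4 (-0.35 in both cases), wild-type control library 5 (-0.33) or wild-type fibril library 2 or 4 (-0.36 in both cases). It was also lost with scaling by library size alone (-0.26, adjusted p = 0.093), without the filter on low counts (-0.36, adjusted p = 0.0539) and with the marker covariate (-0.34, adjusted p = 0.25).

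LPS was followed by more Nr1h3 in KO and by little difference in wild type. KO LPS libraries held 25.5, 24.4, 24.4 and 20.5 CPM, in and just above the upper part of the KO control range, and the difference was 0.60 ± 0.19 (adjusted p = 0.0345). Wild-type LPS libraries held 15.3 to 27.3 CPM (median 23.5), around the same level as wild-type controls, with a difference of 0.02. The test of the KO response minus the wild-type response gave 0.58 ± 0.26 (adjusted p = 0.992). The KO call was lost without KO control library 1, 2, 5 or 6 (0.56, 0.48, 0.53 and 0.57) or without KO LPS library 1, 2 or 3 (0.56, 0.58 and 0.56), with adjusted p from 0.0599 to 0.101. It was also lost with only the compared groups (0.60, adjusted p = 0.161), by library size alone (0.41, adjusted p = 0.138), without the filter (0.58, adjusted p = 0.069) and with the marker covariate (0.58, adjusted p = 0.0605). Against LPS libraries, fibril libraries held more Nr1h3 by 1.58 ± 0.19 in wild type (adjusted p = 3.66e-07) and by 0.82 ± 0.20 in the KO (adjusted p = 0.00312).

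Nr1h2 (ENSMUSG00000060601, chr7:44549616-44553951, minus strand), the widely expressed LXR, varied least of the 10. Its group means spanned 47.4 ± 4.52 CPM in KO fibril to 53.8 ± 3.12 CPM in wild-type LPS libraries, a range of 0.19 on the log2 scale, and 0 of the 12 comparisons called it. Its single libraries ran from 40.5 to 58.9 CPM. The balance of the 2 receptors therefore followed Nr1h3. The ratio of Nr1h3 to Nr1h2 in TPM was 0.428 ± 0.0324 in wild-type controls and 1.29 ± 0.0536 with fibrils, where Nr1h3 was above Nr1h2 in 4 of 4 libraries. In KO it was 0.329 ± 0.123 in controls and 0.904 ± 0.217 with fibrils, with Nr1h3 above in 1 of 5. With LPS it was 0.401 ± 0.0939 in wild type and 0.485 ± 0.0553 in KO.

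**Figure D3:**
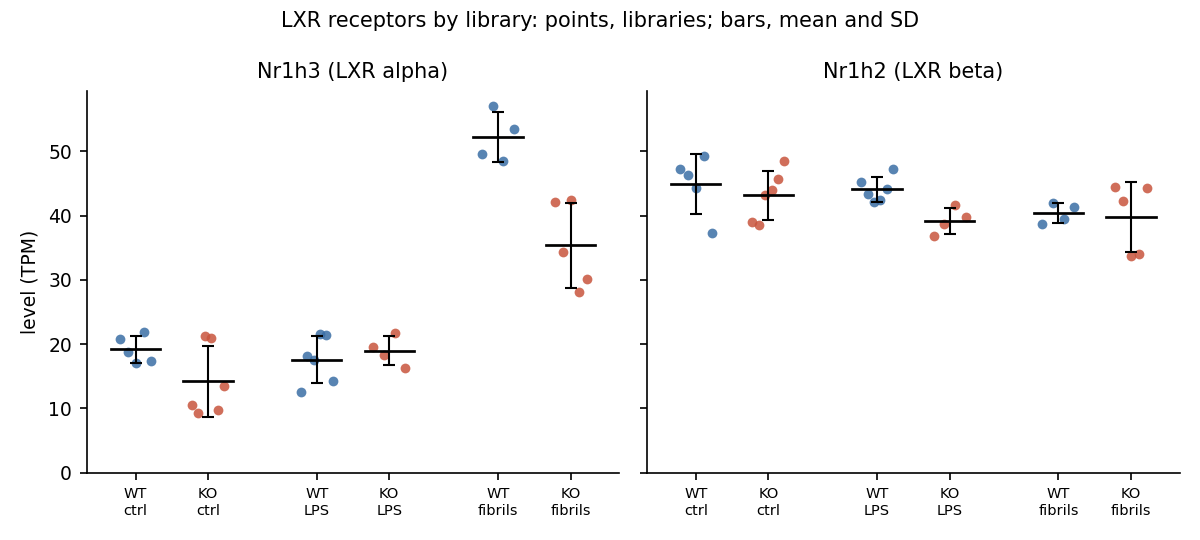
Levels of Nr1h3 and Nr1h2 in TPM (y axis, from 0) in each library of the 6 groups (x axis), with group means and SD. Nr1h3 stands above Nr1h2 in all 4 wild-type fibril libraries and stays below it in every control and LPS library.

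Abca1 (ENSMUSG00000015243, chr4:53030787-53159895, minus strand), which passes cellular cholesterol and phospholipid to lipid-poor apolipoproteins, was highest with LPS. KO controls ran from 806 to 1763 CPM with a median of 1219, and KO LPS libraries held 2406, 2206, 2107 and 1655 CPM. The lowest LPS library overlapped the controls, and the rise was 0.77 ± 0.21 (adjusted p = 0.0114). Wild-type controls held 1305, 1451, 1224, 1450 and 1985 CPM, against 1371 to 2787 CPM (median 1966) with LPS. Here the groups overlapped widely and the difference was 0.44 ± 0.20 (adjusted p = 0.162). The KO call was lost without KO LPS library 1 (0.70, adjusted p = 0.0534) and when only the compared groups were modelled (0.77, adjusted p = 0.0797).

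With fibrils Abca1 did not rise beside Nr1h3. Wild-type fibril libraries held 1382, 1290, 1433 and 1371 CPM, inside the control range (-0.12 on the log2 scale). KO fibril libraries held 685, 801, 702, 1126 and 1105 CPM, the lowest group, at -0.47 ± 0.20 against KO controls (adjusted p = 0.0873). This difference passed the threshold without KO control library 1 or 4 (-0.57 in both cases, adjusted p = 0.0377 and 0.0355), the lowest of the KO controls. Leaving either out widens the gap by the choice, so these passes add no support. All 5 KO fibril libraries lay below all 4 wild-type ones, in a comparison where 15.3% of all tested genes did not overlap. The difference of -0.63 ± 0.22 missed the threshold (adjusted p = 0.0659). Without KO fibril library 4, the highest of its group, it was -0.73 (adjusted p = 0.0416), a pass that adds no support for the same reason. Fibril libraries stood below LPS libraries in KO with no overlap (-1.24 ± 0.22, 0.422-fold, adjusted p = 1.16e-04), a call kept under every alternative. In wild type the same comparison gave -0.56 ± 0.21 (adjusted p = 0.0424), lost without wild-type LPS library 2, 3 or 6 (-0.53, -0.55 and -0.44) or any wild-type fibril library (-0.53 to -0.58), without the filter (-0.58, adjusted p = 0.0581) and with the replicate block (-0.37, adjusted p = 0.0867). Abca1 and Abcg1 were each lowest in the library with the highest marker score in 5 of the 6 groups.

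Abcg1 (ENSMUSG00000024030, chr17:31057675-31117988, plus strand), which exports cholesterol to formed lipoprotein particles, was called in 0 of the 12 comparisons. With fibrils it held 304, 300.4, 303 and 310 CPM in wild type and 78.2, 122, 102, 244 and 269 CPM in KO. Every KO library was lower, in a comparison where 15.3% of all tested genes did not overlap. The marker scores of KO fibril libraries 1 to 5 were 2.59, 2.15, 2.31, 0.74 and 1.27, against -1.14 to -0.79 in the wild-type fibril libraries. Within KO, Abcg1 was higher in the 2 libraries with the lowest scores. Beyond the fit with the score as a covariate, the part of the markers was not tested. The difference of -0.90 ± 0.34 had an adjusted p of 0.0881. It passed the threshold without KO fibril library 4 (-1.09, adjusted p = 0.0468) or 5 (-1.16, adjusted p = 0.0383). These libraries had the 2 highest Abcg1 values of the group. Leaving either out widens the gap by the choice, so the passes add no support. Controls held 340, 348, 199, 378 and 335 CPM in wild type and 90.9 to 379 CPM in KO. The KO group spread widely, and its difference of -0.67 ± 0.30 was not called (adjusted p = 0.662). The mean genotype difference was -0.55 ± 0.19 (adjusted p = 0.0556). It passed the threshold without KO control library 5 or 6, KO fibril library 4 or 5, wild-type control library 3 or wild-type LPS library 1, at -0.59 to -0.64. These had the highest KO or the lowest wild-type values of their groups, so the passes add no support either.

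**Figure D4:**
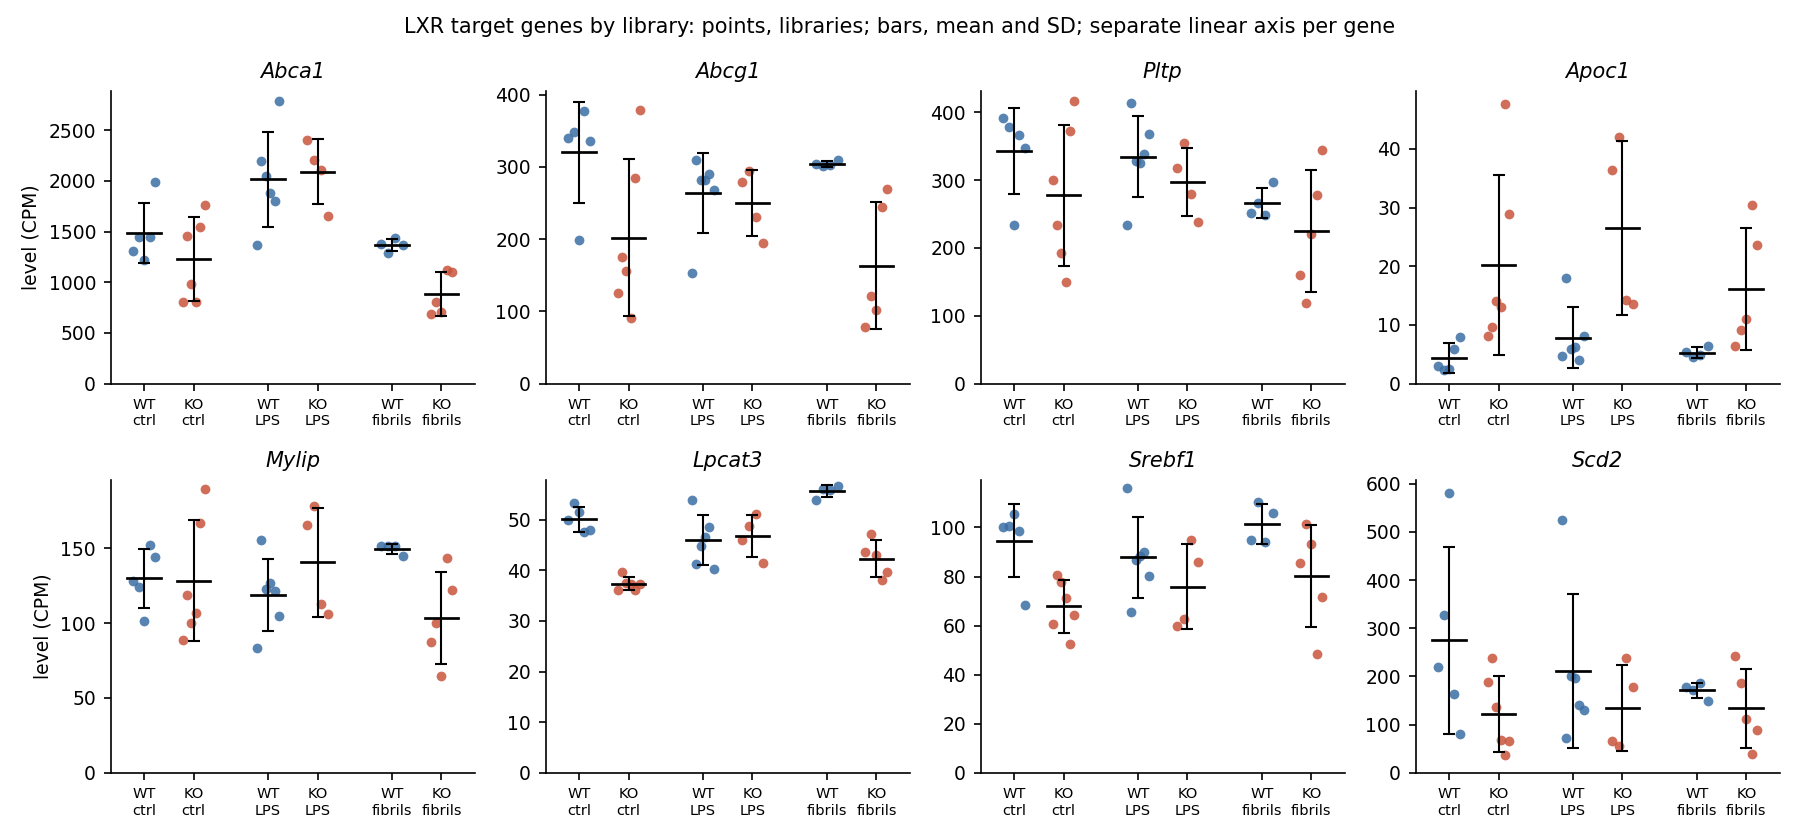
Levels of the 8 LXR target genes in CPM (y axes, linear, from 0, a separate axis per gene) in each library of the 6 groups (x axis), with points for libraries, bars for the mean and SD, blue for wild type and red for KO. Lpcat3 in KO controls lies below all wild-type controls, and Apoc1 in KO controls lies above all wild-type controls.

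Pltp (ENSMUSG00000017754, chr2:164839518-164857711, minus strand) moves phospholipids between lipoproteins. It was the most abundant or second most abundant of the 10 per length and was called in 0 comparisons. Its group means ran from 224 ± 90.1 CPM in KO fibril to 344 ± 63.6 CPM in wild-type control libraries. The fibril difference was -0.31 in KO and -0.37 ± 0.26 in wild type (adjusted p = 0.296). Pltp shares 495 exonic bases with Ctsa on the opposite strand, 19.3% of its exons. The kit keeps strand, but the sources used here do not say whether the counting used it, so reads of both genes cannot be told apart there.

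Apoc1 (ENSMUSG00000040564, chr7:19689481-19692660, minus strand), a small apolipoprotein of the Apoe cluster, was the target most increased in KO. Wild-type controls held 3.01, 2.33, 2.46, 5.84 and 8.0 CPM, and KO controls held 8.03 to 47.7 CPM with a median of 13.6. The groups did not overlap, and the difference was 2.23 ± 0.52 (adjusted p = 0.0636). LPS libraries held 4.02 to 18 CPM (median 6.02) in wild type and 36.5, 42.0, 14.2 and 13.6 CPM in KO (1.76 ± 0.51, adjusted p = 0.0731). Fibril libraries held 5.39, 4.51, 4.80 and 6.45 CPM in wild type and 6.38, 9.21, 10.9, 30.5 and 23.6 CPM in KO (1.61 ± 0.57, adjusted p = 0.0701). In these 2 treatments a single wild-type library overlapped the KO range. Averaged over the 3 treatments Apoc1 was 3.64-fold higher in KO (1.86 ± 0.31, adjusted p = 3.93e-04), and this held under every alternative, from 1.71 to 2.01 with 1 library left out.

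The genotype difference of Apoc1 passed the threshold within single treatments when a library was left out. In controls this was so without KO control library 1 (2.39), KO control library 2 (2.38) or wild-type control library 6 (2.55). With LPS it was so without wild-type LPS library 2 (2.21, adjusted p = 0.03). These were the lowest KO and the highest wild-type libraries of their groups. Leaving them out widens the gap by their choice, so the passes add no support. Apoc1 varied within KO groups along with the marker score: it was highest in the library with the lowest score in 4 of the 6 groups. KO control library 3, with the highest score of all 30 (3.42), held 14.2 CPM. LPS and fibrils were followed by no called difference in either genotype. Apoe, the main apolipoprotein of microglia and an LXR target, lies in the same gene cluster and went the other way with fibrils, with 5002 ± 789 CPM in KO against 9625 ± 244 CPM in wild type (-0.94, adjusted p = 0.00963). With the marker score as a covariate that difference was -0.37 (adjusted p = 0.591).

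Mylip (ENSMUSG00000038175, chr13:45389742-45412022, plus strand), a ubiquitin ligase that limits lipoprotein uptake, was called in 0 comparisons. Fibril libraries held 151.5, 151.8, 151.5 and 144.9 CPM in wild type and 87.2, 100.5, 64.4, 144 and 122 CPM in KO. The groups did not overlap by a narrow margin, as was so for 15.3% of all tested genes, with a difference of -0.53 ± 0.22 (adjusted p = 0.122). In controls the group means were 130 ± 19.7 CPM and 129 ± 40.5 CPM, and the difference was -0.02.

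Lpcat3 (ENSMUSG00000004270, chr6:124663027-124704418, plus strand) places polyunsaturated acyl chains into membrane phospholipids. It was the one of the 10 that was called between genotypes in controls. Wild-type controls held 49.9, 53.3, 51.4, 47.5 and 48.0 CPM, and KO controls held 36.1 to 39.7 CPM with a median of 37.2. All KO libraries lay below all wild-type libraries, and Lpcat3 was lower by a factor of 0.746 (-0.42 ± 0.07, adjusted p = 0.00134). Over the 6 groups, Lpcat3 was lowest in the library with the lowest marker score in 3 and highest in the one with the highest score in 1. Beyond the fit with the score as a covariate, the part of the markers in its values was not tested. With fibrils the wild type held 53.9, 56.0, 55.9 and 56.7 CPM and KO 43.7, 47.3, 43.1, 38.0 and 39.6 CPM, again without overlap (-0.39 ± 0.08, adjusted p = 0.00414).

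With LPS that genotype gap was not seen. Wild-type LPS libraries held 40.3 to 53.8 CPM (median 45.7) and KO LPS libraries 46.0, 48.8, 51.0 and 41.5 CPM, a difference of 0.03 ± 0.07 (adjusted p = 0.876). Lpcat3 rose with LPS in KO without overlap (0.33 ± 0.07, adjusted p = 0.00208) and differed by -0.12 ± 0.07 in wild type (adjusted p = 0.296). The difference between these responses was 0.45 ± 0.10, 95% interval 0.25 to 0.66, with an unadjusted p of 1.18e-04. It did not pass adjustment over all genes (adjusted p = 0.992), where 0 of 14346 genes were called by edgeR, 603 had an unadjusted p under 0.05, and DESeq2 called 0. Fibrils against control differed by 0.15 ± 0.08 in wild type, which missed the threshold (adjusted p = 0.131), as did 0.18 ± 0.07 in KO (adjusted p = 0.0554). The KO difference passed without KO fibril library 4 (0.22, adjusted p = 0.0276) or 5 (0.21, adjusted p = 0.0443), the lowest of that group. Leaving either out widens the gap by the choice, so these passes add no support. Fibril libraries held more than LPS libraries in wild type without overlap (0.28 ± 0.07, adjusted p = 0.00441).

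Scaling bears on Lpcat3 because its differences are small. With scaling by library size alone, the KO differences were -0.38 in controls, -0.24 with fibrils and -0.17 averaged, and the LPS rise in KO was 0.15, and none of these 4 was called (adjusted p = 0.179, 0.161, 0.0565 and 0.362). That scaling moved the median of all genes to 0.16 in KO against wild type with fibrils and to -0.21 in LPS against control in KO. Lpcat3 also shares 334 exonic bases (10.2%) with Emg1 on the opposite strand, so reads there cannot be told apart without strand.

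Srebf1 (ENSMUSG00000020538, chr11:60199089-60222581, minus strand), which encodes the SREBP-1 factors that drive fatty acid synthesis, was lower in KO averaged over treatments (-0.34 ± 0.10, adjusted p = 0.0287). Controls held 100.3, 100.6, 105, 98.7 and 68.4 CPM in wild type and 52.5 to 80.7 CPM (median 67.9) in KO, where 1 wild-type library lay inside the KO range (-0.48 ± 0.16, adjusted p = 0.372). LPS libraries held 65.4 to 116 CPM in wild type and 60.0 to 94.9 CPM in KO. Fibril libraries held 94.8, 110.5, 94.0 and 105.7 CPM in wild type and 85.5, 101.5, 93.4, 48.5 and 71.5 CPM in KO. The mean call was lost without wild-type control library 5 (-0.32, adjusted p = 0.0508) or wild-type fibril library 2 (-0.33, adjusted p = 0.0523), and with scaling by library size alone (-0.25, adjusted p = 0.159). The share of Srebf1 counts on Srebf1-207, the transcript beside the printed element, was 18 ± 2.83% in wild-type controls, 17.8 ± 3.07% with LPS and 15.0 ± 2.81% with fibrils. In KO it was 12 ± 5.34, 11.7 ± 3.64 and 12.7 ± 3.20%. How reads shared by transcripts were divided is not given, so these shares are a description.

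Scd2 (ENSMUSG00000025203, chr19:44293674-44306864, plus strand) makes monounsaturated fatty acids and is also abundant in myelin-forming cells. Its controls spread widely, with 220, 328, 581, 165 and 80.8 CPM in wild type and 36.3 to 237 CPM (median 102) in KO, and the difference of -1.17 ± 0.54 was not called (adjusted p = 0.666). Its level moved with the marker score. It was highest in the library with the highest score in 3 of 6 groups and lowest in the one with the lowest score in 4 of 6. With that score as a covariate, the mean KO difference went from -0.73 ± 0.33 to -1.84 (adjusted p = 1.88e-05), and that of Srebf1 went to -0.62. Wild-type fibril libraries lie at the low edge of the score, so in comparisons that use them the covariate and the group overlap. Scd1, the paralog of Scd2, was near the floor of detection with 6.49 ± 5.82 CPM in wild-type controls, 0.875 ± 0.401 CPM in wild-type fibril and 5.89 ± 5.72 CPM in KO fibril libraries. Reads from stretches that Scd1 and Scd2 share may have been divided between them.

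The wider pathway was described from 6 gene lists, by counts of called genes. Of 18 further LXR targets 16 were tested. With fibrils 1 was higher and 4 lower in wild type, and 0 higher and 4 lower in KO, shares close to the 29.3% and 23.8% of all genes called, so the counts do not set the list apart. Arl4c, a small GTPase, fell in both (-1.40 ± 0.30, adjusted p = 0.00124, and -1.85 ± 0.28, adjusted p = 1.97e-05), from 188 ± 91.4 to 71.0 ± 4.20 CPM in wild type and from 153 ± 55.5 to 42.2 ± 13.7 CPM in KO. The fatty acid desaturase Fads1 also fell in both (-0.93 ± 0.26 and -0.71 ± 0.23). Wild type further called Fads2 and Scd1 lower and the lipase Lpl higher (0.39 ± 0.13), and KO called the engulfment receptor Mertk (-0.80 ± 0.24) and the elongase Elovl5 (-0.35 ± 0.12) lower. Fads2 and Scd1 were at or under 1.56 CPM in every wild-type fibril library, and their differences reversed with the marker score as a covariate. With LPS, Tgm2, a transglutaminase, rose in wild type (1.90 ± 0.34) and KO (1.98 ± 0.34), and Lpl rose in KO (0.43 ± 0.13). Apoe and Npc2, a lysosomal sterol carrier, were the 2 called lower in KO with fibrils and averaged over treatments (mean differences -0.50 ± 0.12 and -0.37 ± 0.09). Of all genes 8.85% and 11.1% were called in these 2 comparisons. Both mean calls were lost with the marker score as a covariate (-0.20 and -0.11). The calls of Arl4c and Tgm2 held under every alternative, whereas those of Fads1 in KO, Mertk, Elovl5, Lpl, Fads2 and Scd1 were each lost without at least 1 library.

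Oxysterol enzymes supply or remove LXR ligands, and 8 of 9 were tested. Ch25h, an oxysterol-making hydroxylase that macrophages induce, rose with LPS and with fibrils in both genotypes. Wild-type controls held 13.8 ± 7.60 CPM, LPS libraries 107 ± 38.9 CPM (2.96 ± 0.34, adjusted p = 2.20e-07) and fibril libraries 45.1 ± 2.51 CPM (1.72 ± 0.35, adjusted p = 7.22e-04). KO held 16.6 ± 6.58, 68.1 ± 11.5 and 66.1 ± 30.1 CPM, rises of 2.02 ± 0.33 and 1.98 ± 0.32. Cyp27a1, the mitochondrial sterol hydroxylase, fell with fibrils in wild type from 28.5 ± 7.37 to 8.76 ± 1.39 CPM (-1.71 ± 0.26) and in KO from 22.1 ± 7.08 to 5.70 ± 1.52 CPM (-1.96 ± 0.24). These calls held under every alternative. Fibrils called 1 higher and 2 lower in wild type, and 1 higher and 1 lower in KO, where 29.3% and 23.8% of all genes were called. The remaining call was Cyp46a1, the neuronal cholesterol hydroxylase, at no more than 0.832 CPM in any library and at 0 in all 4 wild-type fibril libraries. Averaged over treatments, KO called Cyp46a1 and Cyp7b1 higher, with Cyp7b1 at no more than 1.15 CPM in any library, and the desmosterol-pathway enzyme Dhcr7 lower (-0.55 ± 0.15, adjusted p = 0.0230). Of all genes 11.1% were called in that comparison.

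**Figure D5:**
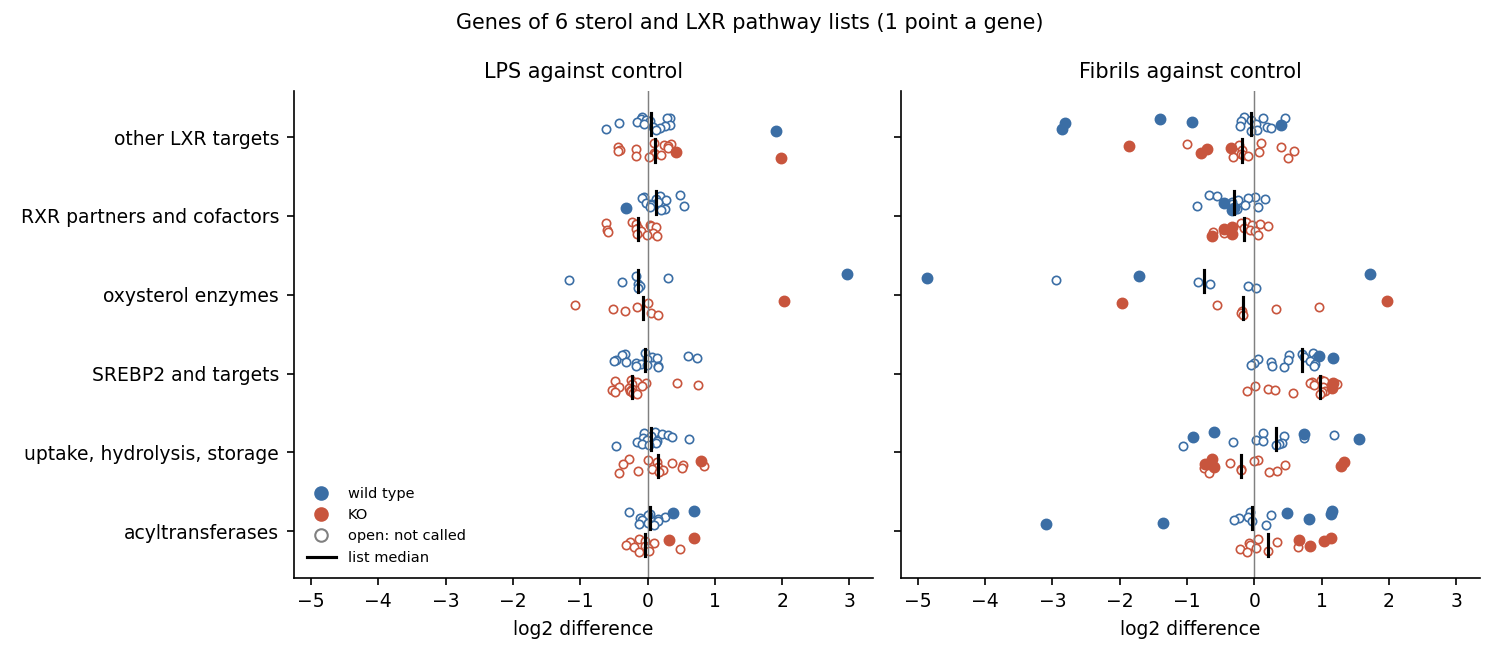
Log2 differences (x axis) of the tested genes of the 6 pathway lists (y axis) for LPS and for fibrils against control, with 1 point a gene, filled where called, blue for wild type and red for KO, and a black line at each list's median. With fibrils the SREBP2 list lies to the right of 0 (medians of 0.71 and 0.97), and called genes are found in each of the 6 lists in both genotypes.

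SREBP2 raises sterol synthesis and uptake when cell sterol is low, the counterpart of LXR. Of its 17 tested genes of 18, 0 were called in KO against wild type or in LPS against control. Of all genes 0.314 to 11.1% were called between genotypes, and 15.1% and 13.7% with LPS in wild type and KO. Fibrils called 2 higher and 0 lower in each genotype, a smaller share than the 29.3% and 23.8% of all genes called in wild type and KO. Insig1, which holds SREBPs in the endoplasmic reticulum, was among them in wild type (1.17 ± 0.42, adjusted p = 0.0369), and Mvd, a mevalonate pathway enzyme, was among them in KO (1.15 ± 0.37, adjusted p = 0.0244). The list's median difference was 0.71 in wild type and 0.97 in KO, against -0.05 and -0.04 for all genes. Insig1 lost its call under 11 of 17 alternatives and Mvd under 5 of 19, leaving out single libraries among them.

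Partners and cofactors of the receptors, 15 tested of 16, included 3 that were lower with fibrils in wild type and 4 in KO, and 0 that were higher. Of all genes 29.3% and 23.8% were called, shares close to or above those of this list. Tbl1xr1, which exchanges corepressors on nuclear receptors, fell from 141 ± 8.28 to 112 ± 3.32 CPM in wild type (-0.33 ± 0.10, adjusted p = 0.0176) and from 132 ± 9.28 to 84.9 ± 16.3 CPM in KO (-0.63 ± 0.09, adjusted p = 1.72e-05). The coactivator Ncoa3 (-0.46 ± 0.15 and -0.44 ± 0.13) and the RXR gene Rxrb (-0.30 ± 0.11 and -0.33 ± 0.10) were called in both, and the coactivator Ncoa1 in KO (-0.33 ± 0.11). Averaged over treatments 2 were lower in KO, Tbl1xr1 (-0.22 ± 0.06) and the corepressor subunit Gps2 (-0.20 ± 0.06). Of all genes 11.1% were called there, so this count does not set the list apart. Of the calls named here, Tbl1xr1 with fibrils in KO held under every alternative. Its call in wild type was lost without wild-type fibril library 4 (adjusted p = 0.0519).

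Among 15 genes of sterol uptake, hydrolysis and storage, fibrils called 2 higher and 2 lower in wild type (29.3% of all genes were called), and 2 higher and 3 lower in KO (23.8%). The scavenger receptor Msr1 rose from 236 ± 55.6 to 692 ± 43.8 CPM in wild type (1.55 ± 0.31, adjusted p = 6.52e-04) and from 282 ± 88.9 to 692 ± 270 CPM in KO (1.29 ± 0.28, adjusted p = 0.00121), under every alternative. Lrp1, an endocytic lipoprotein receptor, was lower in both (-0.91 ± 0.28 and -0.74 ± 0.25), as was the transporter Abca2 (-0.60 ± 0.22 and -0.63 ± 0.20). The fatty acid receptor Cd36 was higher in wild type (0.74 ± 0.27). In KO the cholesteryl ester hydrolase Nceh1 was lower (-0.60 ± 0.20). Cd36 lost its call under 13 of 17 alternatives and Nceh1 under 6 of 19. KO was lower with fibrils in Lipa, the lysosomal lipase (-0.82 ± 0.22), and Cd36 (-0.92 ± 0.27), and both lost their calls with the marker score as a covariate.

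Lpcat3 was compared with 13 other acyl-chain enzymes. Fibrils called 4 higher and 2 lower in wild type (29.3% of all genes were called), and 4 higher and 0 lower in KO (23.8%). The acyl-CoA synthetase genes Acsl5, Acsl1 and Acsl4 were called higher in both genotypes. Acsl5 went from 162 ± 5.90 to 357 ± 10.7 CPM in wild type (1.14 ± 0.10, adjusted p = 2.36e-08) and from 156 ± 18.2 to 319 ± 53.3 CPM in KO (1.03 ± 0.09, adjusted p = 1.68e-08). Acsl1 rose by 1.15 ± 0.13 and 1.14 ± 0.12 with fibrils, and by 0.69 ± 0.12 and 0.70 ± 0.12 with LPS, in wild type and KO. The paralog Lpcat2 rose from 62.9 ± 6.52 to 111 ± 3.17 CPM in wild type (0.82 ± 0.10, adjusted p = 1.64e-06) and from 57.8 ± 5.25 to 103 ± 11.5 CPM in KO (0.83 ± 0.09, adjusted p = 2.04e-07). Lpcat1 and Lpcat4, with group means of 28.0 to 35.0 CPM and 1.57 to 2.83 CPM, were called in 0 of the 12 comparisons. Between genotypes, Mboat7, which adds arachidonate to phosphatidylinositol, was lower in KO averaged over treatments (-0.35 ± 0.06, adjusted p = 6.86e-04) and Lpcat2 was lower by a small amount (-0.18 ± 0.05, adjusted p = 0.0314). The calls of Acsl5, Acsl1 and Lpcat2 for fibrils and of Mboat7 for genotype held under every alternative, and that of Lpcat2 for genotype was lost in 10 of 37.

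Genes with the most similar group profiles were sought for the 3 of the 10 with the widest range of group means: Apoc1, Nr1h3 and Abca1, at 2.58, 2.15 and 1.26 on the log2 scale. Likeness was the mean absolute difference between centred group means over 6 groups, among 9429 candidate genes. For Nr1h3 the nearest were Fam241a (0.131), the scavenger receptor gene Marco (0.140) and Cd302 (0.161). For Abca1 they were Hmga2 (0.0575), Vps37b (0.0899) and Bcar3 (0.0978). For Apoc1 they were Atp10d (0.323), Myo6 (0.401) and the transhydrogenase gene Nnt (0.401), at a larger distance than for the other two genes. These are descriptions over 6 group means, with no test.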

How the data were processed

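Total RNA was made into stranded, ribosomal-RNA-depleted libraries (Illumina TruSeq) and read as single 100-base reads, with 4 libraries per sequencing pool, per the labels' protocols; which libraries shared a pool is not given. The authors deposited raw counts per Ensembl transcript. CASAVA 1.7.1, STAR 2.4.2a and the mm10 build are named in the submitters' processing notes, and the sources used here do not give the counting program. From 94647 transcripts, 91320 matched GENCODE M21 and were summed to genes, and 3327 (0.779 to 0.891% of counts per library) did not match and were left out. TPM used the same transcripts' lengths.

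Genes passing the edgeR filter were tested with the quasi-likelihood model of edgeR 4.0.16 in R 4.3.3 over all 30 libraries, with TMM scaling (0.827 to 1.14), a mean per group and 24 residual degrees of freedom, in 12 comparisons. Values are log2 differences ± SE with p adjusted over all 14346 genes (Benjamini-Hochberg, called under 0.05), and log2 CPM used a prior count of 2. The labels do not say that replicates are separate cultures or animals, so p-values measure the spread between these libraries, which may be technical. No libraries were identical or within sampling noise of each other. The scripts were tested on simulated data.

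The 10 genes, the gene lists and the 7 libraries left out in 1 alternative (KO control 1, 4 and 6, KO fibril 5, wild-type control 6, wild-type LPS 1 and 6) were chosen with earlier results of these data known. Genes named in the text are the 10, up to 3 called genes with the smallest p per list, direction and comparison, the 3 nearest profiles of the 3 genes with the widest range, any gene that makes up a count of 5 or fewer, Lrrk2, Apoe, Scd1, Lpcat1, Lpcat2 and Lpcat4. Some genes that this choice names are not reported here. Alternatives were only the compared groups, RLE scaling, library size alone, no filter on low counts, DESeq2 1.42.0, the replicate number as a block, the marker score as a covariate, the 7 libraries left out, and each library left out in turn.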

Additional observations from a re-analysis of the deposited data

Results flagged for a closer look

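Of 60 combinations of a gene and a group, 8 held a library that stood apart from the rest of its group by Dixon's gap criterion, where chance gives about 1 in 20. Wild-type control library 3 was lowest of its group for Abcg1 (198.721 CPM, the next at 335.386 CPM) and Pltp (233.51 CPM, the next at 347.993 CPM). Wild-type LPS library 1 was lowest for Abcg1 (153.037 CPM, the next at 267.503 CPM) and highest for Scd2 (524.09 CPM, the next at 200.914 CPM). These 2 libraries had the highest marker scores of their groups, 2.69 and 2.88. Wild-type control library 6, with the lowest marker score of its group (-0.76), was lowest for Srebf1 (68.408 CPM, the next at 98.7453 CPM). Wild-type LPS library 2 was highest for Apoc1 (17.987 CPM, the next at 8.1367 CPM). KO control library 2 was highest for Lpcat3 (39.6545 CPM, the next at 37.4085 CPM). Wild-type fibril library 4 was lowest for Mylip (144.865 CPM, the next at 151.458 CPM), in a group with a small spread. The part of the markers in these values was not tested.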

How the results depend on the processing

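Of the 17 calls on the 10 genes, 7 held under every alternative and 10 were lost under some. The number of the 10 genes called moved in these cases, and the cause was not tested. With only the compared groups it was 1 for KO against wild type with LPS, 1 for LPS in KO and 2 for fibrils in wild type. With library size alone it was 1 between genotypes with fibrils, 1 for the mean genotype difference and, as before, 1 in controls. In each of these 3 cases the call was higher in KO, and 0 were lower. The main fit had called 1 lower in controls, 2 lower with fibrils, and 3 lower and 1 higher for the mean. Under the same scaling the number called was 1 for LPS in wild type, 1 for LPS in KO and 2 for fibrils in KO. Without the filter it was 1 for KO against wild type with fibrils. With the marker score as a covariate it was 4 for genotype in controls, 1 with LPS and 4 with fibrils, 5 and 4 for fibrils in wild type and KO, and 7 for fibrils against LPS in wild type. Without the 7 libraries it was 2 for genotype in controls, 4 with fibrils, 1 for LPS in wild type, 2 for fibrils in KO and 4 for fibrils against LPS in KO. DESeq2 gave 2, 1 and 4 for genotype in controls, with LPS and with fibrils, and 2 for fibrils in KO. Leaving out 1 library gave 1 to 2, 0 to 1 and 1 to 4 for these genotype comparisons, 2 to 5 for the mean, 0 and 1 to 3 for LPS in wild type and KO, 1 and 1 to 2 for fibrils, and 2 to 3 and 2 for fibrils against LPS.

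The replicate block gave 1 for KO against wild type with LPS, 6 with fibrils and 1 for LPS in wild type. Of 64 same-numbered pairs of libraries 25 had a correlation of deviations over 0.1 (-0.519 to 0.655), and libraries correlated best with their own number in 33 of 128 checks, so the numbers are not taken as pairs.

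Signs reversed under the marker covariate alone: Scd2 for fibrils against LPS in wild type (1.07, adjusted p = 0.0214), Scd1 for fibrils against control in wild type (0.16), and Fads2 for fibrils against control (0.0166) and against LPS (0.45) in wild type. Nr1h3 lost its call in KO against wild type with fibrils with library size alone (-0.53), without the filter (-0.65) and, as given above, with the marker covariate.

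Over all genes, the count of 45 for genotype in controls went to 16 with the compared groups, 86 with the covariate, 152 without the 7 libraries and 98 with DESeq2. That of 243 with LPS went to 119 to 1090, that of 1270 with fibrils to 78 to 2560, and the mean's 1595 to 383 to 3328. LPS in wild type went from 2170 to 3836 and in KO from 1965 to 1114. Fibrils went from 4209 to 2437 in wild type, from 3412 to 1546 in KO and against LPS in KO from 3811 to 2359. The fibril interaction had 0 calls by edgeR (1667 with an unadjusted p under 0.05), 248 without the 7 libraries and 67 by DESeq2. Library size alone put the median of all genes between -0.25 (fibrils in wild type) and 0.16 (KO against wild type with fibrils), and moved the share of calls that were higher from 48.9 to 60% for genotype in controls, 26.7 to 68.9% with LPS, 58.5 to 84.2% with fibrils (68.6% with RLE) and 62.7 to 89.2% for the mean, from 46.9 to 15.5% and 46.3 to 18.1% for LPS, from 47.3 to 17.4% and 51.4 to 31.1% for fibrils, and from 51.8 to 62.9% for fibrils against LPS in KO.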
